A study of Mus musculus with 64 samples.

Results

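A set of 6 mouse genes whose products bind, make, move or break down lipids was followed from the unfertilized egg to the blastocyst and in early embryos kept with inhibitors: Fabp3, Fabp5, Elovl6, Stard4, Ptgis and Acat1. They were taken by name. Every probe whose only gene symbol was one of the 6 was used, which gave 13 of the 22575 probes on the array, for 6 of the 3089 genes that have such probes: 2 for Fabp3, 1 for Fabp5, 4 for Elovl6, 3 for Stard4, 1 for Ptgis and 2 for Acat1. Another 3 probes carry a second symbol beside Stard4 or Ptgis and were not used. The 64 arrays carried 2 colours each, the total RNA of eggs or embryos in one and a reference RNA in the other, named Universal Control in the stage set and Universal Reference in the treatment set. In the stage set, 28 arrays cover 7 stages with 4 arrays each, from the unfertilized through the fertilized egg, the 2-cell, 4-cell and 8-cell embryo and the morula to the blastocyst. In the treatment set, 36 arrays cover 12 groups of 3. Its controls are early 1-cell embryos (21 h), late 1-cell embryos (32 h), early 2-cell embryos (43 h) and late 2-cell embryos (54 h). Its treated groups had AM (32, 43 and 54 h), AC or DMSO (32 and 43 h) or CHX (43 h). What these letters stand for is not in the labels. From general knowledge they are taken as α-amanitin, which blocks RNA polymerase II, as aphidicolin, which blocks DNA synthesis, as cycloheximide, which blocks translation, and as the solvent dimethyl sulfoxide. Strain, doses, the number of embryos pooled per array and the event from which hours count are not given in the labels, which also do not say that replicate arrays came from separate collections, so the p-values measure the spread between arrays.

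Fatty acids are poorly soluble in water, and inside cells they travel bound to small carriers such as FABP3 and FABP5. ELOVL6 is an elongase of the endoplasmic reticulum that lengthens saturated and monounsaturated fatty acids by a unit of carbon atoms, as in the step from palmitate to stearate. STARD4 carries cholesterol between membranes, PTGIS makes prostacyclin from prostaglandin H, and ACAT1 is a mitochondrial thiolase that acts on acetoacetyl-CoA in ketone body and isoleucine metabolism. Stored lipids and prostacyclin signalling have both been studied in mouse embryos before implantation. A level below that of the reference does not mean that a gene is off, since each value is a ratio to a mixture of other RNA.

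On the mouse assembly GRCm38.p6, Fabp3 spans chr4:130308738-130315463, Fabp5 chr3:10012585-10016610, Elovl6 chr3:129532386-129638495, Ptgis chr2:167203194-167252150 and Acat1 chr9:53580522-53610350. The probe sequences were not used here, so where in its gene a probe lies was not determined. The bases just upstream of the start of the genes with the widest rises from egg to blastocyst, Elovl6 and Fabp3, are shown from RefSeq, on the plus strand and written 5′ to 3′, with a match to a nuclear receptor half-site in capitals. They cover chr4:130308488-130308737 for Fabp3 and chr3:129532136-129532385 for Elovl6.
Fabp3: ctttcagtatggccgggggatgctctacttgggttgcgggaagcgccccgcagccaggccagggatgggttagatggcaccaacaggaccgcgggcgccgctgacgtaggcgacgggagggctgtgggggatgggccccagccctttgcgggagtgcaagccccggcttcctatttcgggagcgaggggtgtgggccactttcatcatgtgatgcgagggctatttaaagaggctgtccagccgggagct
Elovl6: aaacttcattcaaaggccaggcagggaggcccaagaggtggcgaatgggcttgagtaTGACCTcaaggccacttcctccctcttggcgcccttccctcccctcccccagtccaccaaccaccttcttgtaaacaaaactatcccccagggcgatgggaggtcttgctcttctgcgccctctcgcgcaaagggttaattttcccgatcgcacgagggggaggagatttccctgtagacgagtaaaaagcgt
The Fabp3 stretch is 64.8% G or C with 17 CpG, and the Elovl6 stretch is 56.4% with 11 CpG. The medians over the 32851 promoters of the table are 52.4% and 6. Both strands were searched for 7 motifs. The half-site AGGTCA was found once, at -193 of Elovl6, where it reads TGACCT on the strand shown, and 14% of all promoters hold it. No match was found in either stretch to GGGCGG (GC box, in 32.7% of promoters), CCAAT (33.8%), CACGTG (E-box, 6.02%), TCACCCCAC (sterol element, 0.496%), GGAATG (TEAD element, 12.6%) or TATAAA (12.4%). Of the 6 genes only these 2 were searched for motifs.

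All levels below are log2 ratios of embryo to reference, where 1 unit is a factor of 2 in RNA. That direction is likely and not settled, because the labels do not state it. Its basis is that all 5 probes for 4 of 10 listed oocyte genes lay above the reference in unfertilized eggs (median 3.22), and that 3 of them were lower in blastocysts, where the median was 0.93. With the opposite sign every rise here would be a fall. For adhering cells, 3 probes for 3 of 14 listed cumulus and granulosa genes were measured, and 0 of them changed between fertilized eggs and 2-cell embryos or between unfertilized eggs and blastocysts. Few markers bear on the blastocyst label. Of 10 trophectoderm genes 1 was measured, with 2 probes whose median was 2.24 in 2-cell embryos, 1.66 in morulae and 1.15 in blastocysts. Of 6 inner cell mass genes 2 were measured with 3 probes, of which 1 rose and 1 fell between unfertilized egg and blastocyst. None of these 5 probes was called between morula and blastocyst, so the markers measured do not set blastocysts apart from the stage before. Values are held at a limit of ±6.64, which 2 of the 832 member values reach. Replicate arrays had mean correlations of 0.76 to 0.98 with the others of their group. The stage arrays were divided into 2 array subsets that no label names: 17 arrays with all fertilized, 2-cell and 4-cell arrays, 3 unfertilized egg arrays and morula arrays 1 and 2, and 11 arrays with all 8-cell and blastocyst arrays, unfertilized egg array 4 and morula arrays 3 and 4. Only unfertilized eggs and morulae hold arrays of both. Arrays of the other stages were placed by their likeness to the splits within these 2. For those other stages, subset and stage cannot be told apart. The 4-cell and 8-cell stages thus share no subset, so the step between them cannot be read within a subset. Values within a subset given below are for other pairs of stages. Fertilized eggs and blastocysts share no subset either. Between unfertilized eggs and blastocysts, 3 egg arrays lie in the first subset and all blastocyst arrays in the second. In bulk RNA, fewer cells that express a gene and less RNA per cell cannot be told apart.

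Over the stages, 10 of the 13 probes differed, and so did 64.3% of all probes (F test in limma, Benjamini-Hochberg adjusted p under 0.05). The levels took 3 different courses. Fabp3 and Elovl6 rose, Elovl6 from the 2-cell stage and Fabp3 at the 8-cell stage, though in treatment set controls Fabp3 probe 20399 rose earlier. Fabp5 and Ptgis fell after fertilization and had their highest means in blastocysts, which for Ptgis were not called above fertilized eggs. Acat1 fell into the 2-cell stage and had its lowest means from the 8-cell stage on. For its probe 19907, 2-cell embryos and blastocysts were not called apart (limma, adjusted p = 0.14).

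**Figure D1:**
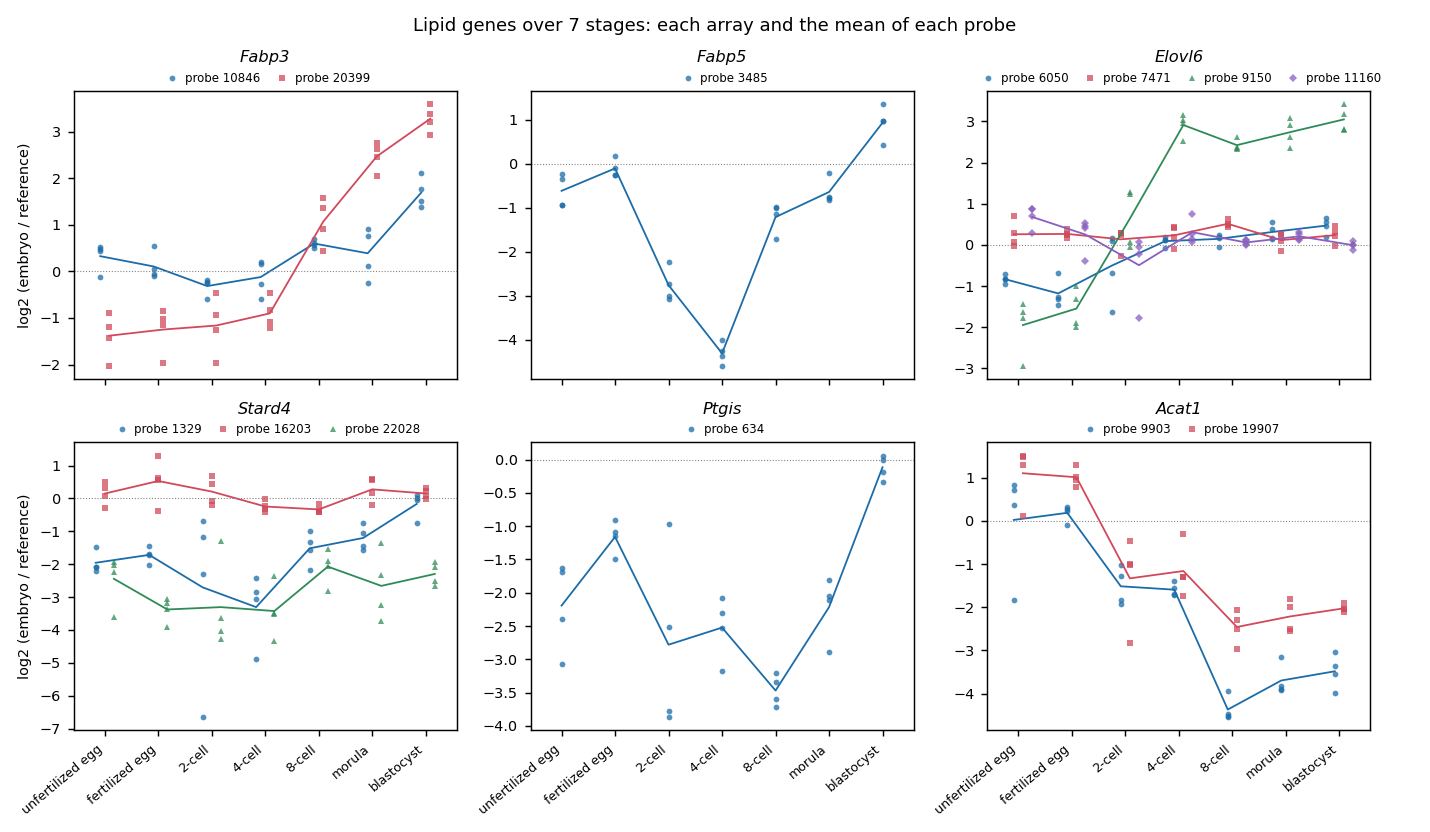
Log2 ratio of embryo to reference for each member gene on the y axis, over the 7 stages on the x axis. Points are single arrays (4 per stage), lines join the means, and colours are probes. Fabp5 (probe 3485) reaches its lowest mean, -4.30, in 4-cell embryos, and Acat1 (probe 9903) reaches its lowest, -4.37, in 8-cell embryos.

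Fabp3 codes for a fatty acid carrier best known from heart and skeletal muscle. Its probe 20399 read -1.19, -0.89, -2.02 and -1.42 in unfertilized eggs, -0.83, -0.47, -1.08 and -1.22 in 4-cell embryos, 1.57, 0.43, 0.92 and 1.37 in 8-cell embryos, 2.76, 2.63, 2.05 and 2.45 in morulae and 3.39, 2.93, 3.22 and 3.59 in blastocysts. The 8-cell, morula and blastocyst arrays each lay above all arrays of the stages before them. The stages up to 4-cell had means of -1.38 to -0.90, and no neighbours among them passed the test. Blastocysts were 4.66 ± 0.31 (SE) above unfertilized eggs, a 25.4-fold difference (limma, adjusted p = 7.5e-12). The step to 8-cell was 1.97 ± 0.31 (adjusted p = 3.7e-05), that to the morula 1.40 ± 0.31 (adjusted p = 0.025), and that to the blastocyst, 0.81 ± 0.31, was not called (adjusted p = 0.23). The call from 8-cell to morula was lost with the array subset as a block, at 1.26 (adjusted p = 0.32), in a fit of the compared stages alone, and without any of 8-cell arrays 2, 3 and 4 or morula arrays 1 and 2.

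The other Fabp3 probe, 10846, moved less. It read -0.12, 0.48, 0.53 and 0.43 in unfertilized eggs and 2.12, 1.51, 1.77 and 1.38 in blastocysts, with means between -0.31 and 0.60 at all stages between. Only the blastocyst arrays stood clear of every other stage. From 4-cell to 8-cell the probe rose by 0.72, a call lost with the subset as a block and without 4-cell array 2 or 3. The rise from morula to blastocyst was 1.30 ± 0.25 (adjusted p = 0.0045), which with the subset as a block was 1.02 (adjusted p = 0.038). Within the second subset alone, where 2.36% of all probes were called, it was 0.85 and not called (adjusted p = 0.052), and a fit of these 2 stages alone did not call it. The means of the 2 probes had a Pearson correlation of 0.81 over the 7 stages.

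Fabp5 codes for the carrier first described in epidermis. In unfertilized eggs its probe read -0.24, -0.94, -0.35 and -0.93, and in fertilized eggs 0.18, -0.10, -0.26 and -0.26. It then read -3.00, -3.07, -2.72 and -2.24 in 2-cell embryos and -4.01, -4.37, -4.58 and -4.25 in 4-cell embryos. The fertilized egg, 2-cell and 4-cell arrays formed 3 separate ranges, each below the one before. The level fell by 2.65 ± 0.24 into the 2-cell stage, 6.26-fold (adjusted p = 7.4e-09), and by 1.55 ± 0.24 into the 4-cell stage (adjusted p = 0.00011). In 8-cell embryos the arrays were back at -0.98, -1.72, -1.14 and -1.02. This rise of 3.09 ± 0.24, or 8.52-fold, kept its size with the subset as a block (3.09, adjusted p = 8.8e-06). Such a fit takes the shift between subsets from the unfertilized egg and morula arrays alone and assumes it equal at every stage. Morulae lay at -0.64 ± 0.29 (SD, n = 4), and blastocysts at 1.34, 0.97, 0.96 and 0.43, above every array of every other stage. The blastocyst level exceeded that of fertilized eggs, the next in order, by 1.04 (adjusted p = 0.0014), but these stages share no array subset. Unfertilized eggs and morulae, next to each other in order, differed by 0.03 (adjusted p = 0.97).

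The 4 Elovl6 probes did not give the same course. Probe 9150 read -1.63, -1.78, -1.44 and -2.93 in unfertilized eggs, -2.0, -0.99, -1.31 and -1.88 in fertilized eggs, 0.07, -0.04, 1.25 and 1.28 in 2-cell embryos and 2.51, 2.96, 3.03 and 3.15 in 4-cell embryos. All 2-cell arrays lay above all egg arrays, and all 4-cell arrays above all 2-cell arrays. The steps were 2.19 ± 0.32, 4.55-fold (adjusted p = 9.1e-06), and 2.27 ± 0.32, 4.83-fold (adjusted p = 3.8e-05). After that 8-cell embryos had a mean of 2.42 ± 0.14 (SD, n = 4), morulae 2.74 ± 0.32 and blastocysts 3.05 ± 0.30. In the fit of all stages no neighbours in the order of the 4 stages from the 4-cell embryo on were called (adjusted p of 0.55 to 0.80). Within the second subset, blastocysts were above 8-cell embryos by 0.63 ± 0.16 (adjusted p = 0.025). Between unfertilized egg and blastocyst it rose 31.9-fold, by 5.0 ± 0.32 (adjusted p = 3.2e-12).

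Probe 6050 rose with it over the stages (correlation of means 0.96) but over a narrower range, from -1.18 ± 0.33 in fertilized eggs to 0.47 ± 0.20 in blastocysts. Blastocysts were 1.30 ± 0.27 above unfertilized eggs (adjusted p = 0.00037). Probe 7471 stayed between 0.12 and 0.51 at all stages (F test, adjusted p = 0.53). Probe 11160 had its highest mean, 0.68 ± 0.28, in unfertilized eggs and its lowest, -0.49 ± 0.86, in 2-cell embryos, where array 4 read -1.77 and the others -0.22 to 0.06. The correlations of these last 2 probes with the others and with each other were -0.35 to 0.17. The rise of Elovl6 given here is therefore that of probes 9150 and 6050. Over the whole array, 244 pairs of probes for 1 gene whose means spanned at least 2 log2 units had a median correlation of 0.74, and 59.4% of pairs exceeded 0.5.

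Stard4, the cholesterol carrier, at chr18:33199138-33213862 of the same assembly, was less well measured. Probe 1329 had means from -3.31 ± 1.07 in 4-cell embryos to -0.17 ± 0.39 in blastocysts. In 2-cell embryos its arrays read -6.64, -2.31, -0.69 and -1.18, the first of them at the limit of the scale. The 4-cell arrays read -2.86, -2.44, -3.07 and -4.87 and the 8-cell arrays -0.99, -1.58, -1.32 and -2.19, which do not overlap. The difference of 1.79 ± 0.74 was not called (adjusted p = 0.056), and the spread it is tested against includes the 2-cell array at the limit. Blastocysts were also 1.79 ± 0.74 above unfertilized eggs (adjusted p = 0.074). Fits of these stages alone called both, with adjusted p of 0.017 and 0.0006. Probe 22028 lay below the reference throughout, with means of -3.43 to -2.08, and its rise of 1.35 ± 0.54 from 4-cell to 8-cell (adjusted p = 0.048) was lost with the subset as a block (0.82, adjusted p = 0.79), with the replicate block, with each array centred on its median, and on leaving out any of 4-cell arrays 2, 3 and 4 or 8-cell arrays 1, 2 and 4. Probe 16203 lay between -0.34 and 0.53. The 3 probes' means had correlations of -0.33 to 0.70.

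Ptgis, the prostacyclin synthase, had 1 probe. It read -1.68, -2.40, -1.63 and -3.07 in unfertilized eggs, -1.14, -0.91, -1.50 and -1.09 in fertilized eggs and -3.77, -3.86, -2.52 and -0.97 in 2-cell embryos. The last of the 2-cell arrays lay among the fertilized eggs and the other 3 below them. The level fell by 1.62 ± 0.43 between these stages (adjusted p = 0.0057), a call that a fit of these 2 stages alone did not make. In 8-cell embryos the arrays read -3.71, -3.60, -3.21 and -3.35, in morulae -1.80, -2.12, -2.90 and -2.05, and in blastocysts 0.00, -0.18, 0.06 and -0.34. All 8-cell arrays lay below all morula arrays, and all blastocyst arrays above every array of every other stage. From morula to blastocyst the level rose by 2.10 ± 0.43, 4.29-fold (adjusted p = 0.0092). From 8-cell to blastocyst it rose by 3.36 ± 0.43, 10.2-fold. Fertilized eggs, which share no array subset with blastocysts, were next in order below them, and this difference of 1.05 ± 0.43 was not called (adjusted p = 0.058). The difference of 1.25 ± 0.43 between 8-cell and morula was not called (adjusted p = 0.072).

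Acat1, the thiolase, was highest in eggs. Probe 19907 read 1.30, 1.51, 1.48 and 0.12 in unfertilized eggs, 1.29, 0.95, 0.78 and 1.01 in fertilized eggs, -0.46, -1.0, -1.03 and -2.84 in 2-cell embryos and -2.97, -2.29, -2.50 and -2.07 in 8-cell embryos. Probe 9903 read 0.83, 0.72, 0.37 and -1.84, then 0.26, 0.24, -0.09 and 0.33, then -1.83, -1.93, -1.27 and -1.03, and at 8-cell -3.94, -4.54, -4.52 and -4.47. In both, the fourth array of the unfertilized eggs, which belongs to the second subset, was the lowest of its group, and all 2-cell arrays lay below all fertilized egg arrays. The fall into the 2-cell stage was 5.06-fold for probe 19907, where the level fell by 2.34 ± 0.38 (adjusted p = 3.9e-05), and 3.25-fold for probe 9903, where it fell by 1.70 ± 0.38 (adjusted p = 0.0013). In the same step 4 of the 5 oocyte probes and 12.9% of all probes were lower as well, with an oocyte median of -1.67, and whether the changes share a source was not tested.

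From 4-cell to 8-cell, Acat1 probe 9903 fell by 2.77 ± 0.38 and probe 19907 fell by 1.30 ± 0.38. With the array subset as a block the differences were -1.48 (adjusted p = 0.073) and -0.37 (adjusted p = 0.88), so neither call held, and after quantile normalization that of probe 19907 (-0.96) did not either. Within the first subset, morula arrays 1 and 2 were lower than 4-cell embryos for probe 9903, at -3.49 against -1.59 (difference -1.90 ± 0.26, adjusted p = 0.00073). For probe 19907 the same difference was -0.73 ± 0.51 and was not called (adjusted p = 0.68). Blastocysts lay at -3.48 ± 0.40 and -2.03 ± 0.08 for probes 9903 and 19907, which was 11.3-fold and 8.73-fold below unfertilized eggs. Within the second subset alone the differences were -1.64 and -2.14. A single unfertilized egg array is left there, so the test takes its spread from the other stages and assumes that this array varies as they do. Under that assumption both were called, as were 23.3% of all probes. Also within this subset, blastocysts lay above 8-cell embryos for probe 9903, by 0.89 ± 0.21 (adjusted p = 0.015). The probes' means had a correlation of 0.95.

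Counted by comparison, 0 of the 13 probes changed between unfertilized and fertilized eggs, where 0.766% of all probes did. An unadjusted p under 0.05 was reached by 2 of the 13, and by 3513 of all 22575 probes. Into the 2-cell stage 5 changed, 1 up and 4 down, against 27.4% of all probes, 14.5% up and 12.9% down. Into the 4-cell stage 2 changed, Elovl6 probe 9150 up and Fabp5 down, against 13.6%, 9.58% up and 4.04% down. Into the 8-cell stage 6 changed, 4 up and 2 down, against 41.1%, 20.9% up and 20.2% down. With the replicate block 5 did, against 40.4% of all probes. With the subset as a block 2 did, Fabp3 probe 20399 and Fabp5, both up, against 2.56% of all probes in either direction and 0.611% upward. Into the morula 1 rose, against 4.88% in either direction and 3.24% upward. With the subset as a block, or in a fit of these stages alone, 0 of the 13 and 0% of all probes were called, and within the second subset 0 of the 13 and 0.00443%. Into the blastocyst 3 rose, Fabp3 probe 10846, Fabp5 and Ptgis, against 1.33% of all probes in either direction and 0.815% upward. Between unfertilized egg and blastocyst 8 changed, 6 up and 2 down, against 29.5%, 15.8% up and 13.7% down. The median difference of the 13 probes was 1.30 there, against 0.05 over all probes. For the step into the 8-cell stage it was 0.05, against -0.06.

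**Figure D2:**
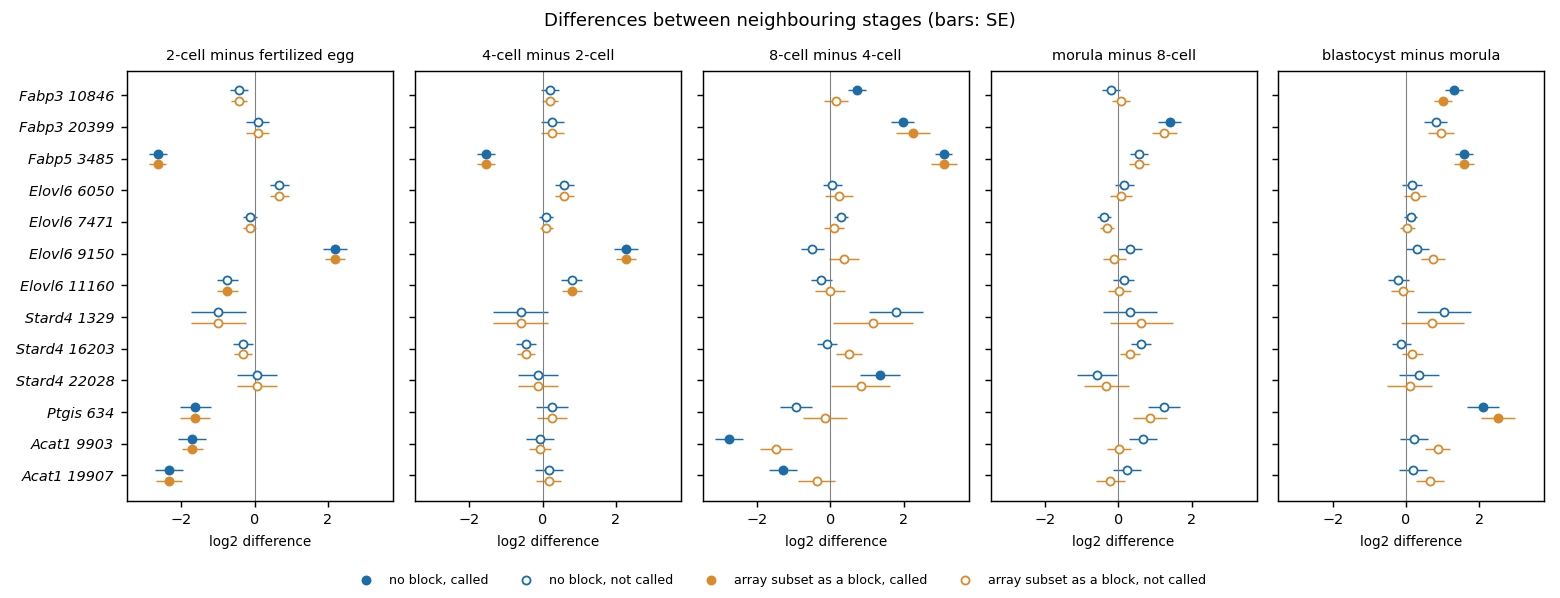
Log2 difference between consecutive stages on the x axis, for each member probe on the y axis, with bars for the standard error. Blue points are fits without a block, orange points fits with the array subset as a block, and filled points passed the test in limma. Fabp5 is filled in both colours at -2.65 into the 2-cell stage and at 3.09 into the 8-cell stage, where both Acat1 points are filled in blue only.

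Pairs of stages with arrays in the same subset were also compared inside it, which does not cover the step from 4-cell to 8-cell. Within the first subset, the morula arrays 1 and 2 were above 4-cell embryos by 3.60 ± 0.41 for Fabp3 probe 20399 (adjusted p = 0.00023) and by 3.50 ± 0.25 for Fabp5 (adjusted p = 5.6e-06). Acat1 probe 9903 was the other of the 3 probes called there, against 5.19% of all probes. Within the second subset, 8 of 13 probes differed between 8-cell embryos and blastocysts, all of them higher in blastocysts, against 16.8% of all probes in either direction and 10.7% higher. The largest of these was Ptgis at 3.36 ± 0.20 (adjusted p = 6.9e-06). Fabp3 probe 20399 rose by 2.21, Fabp5 by 2.14, Stard4 probe 1329 by 1.35 and Fabp3 probe 10846 by 1.09. Acat1 probe 9903 rose by 0.89, from its lowest level, Elovl6 probe 9150 by 0.63 and Stard4 probe 16203 by 0.48. In the fit of all stages together 4 of the 13 were called for this pair, against 3.69% of all probes: both Fabp3 probes, Fabp5 and Ptgis.

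The treatment set covers the 1-cell and 2-cell stages. It was read against a reference with another name and normalized apart, so its levels are not set against those of the stage set. Elovl6 probe 9150 and Fabp3 probe 20399 rose and Fabp5, Ptgis and Acat1 fell as control embryos went from late 1-cell to late 2-cell. Between AM and control 1 of the 13 probes was called, Elovl6 probe 9150, which was lower with AM at 54 h. In simulated data with 100 of 22575 probes shifted, the test at that hour recovered 17% of shifts of 1 log2 unit. The data had 1457 calls there, so recovery in the data may differ. Other probes may have changed without a call. Over the 12 groups, 7 of the 13 probes differed, against 43.7% of all probes (F test).

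**Figure D3:**
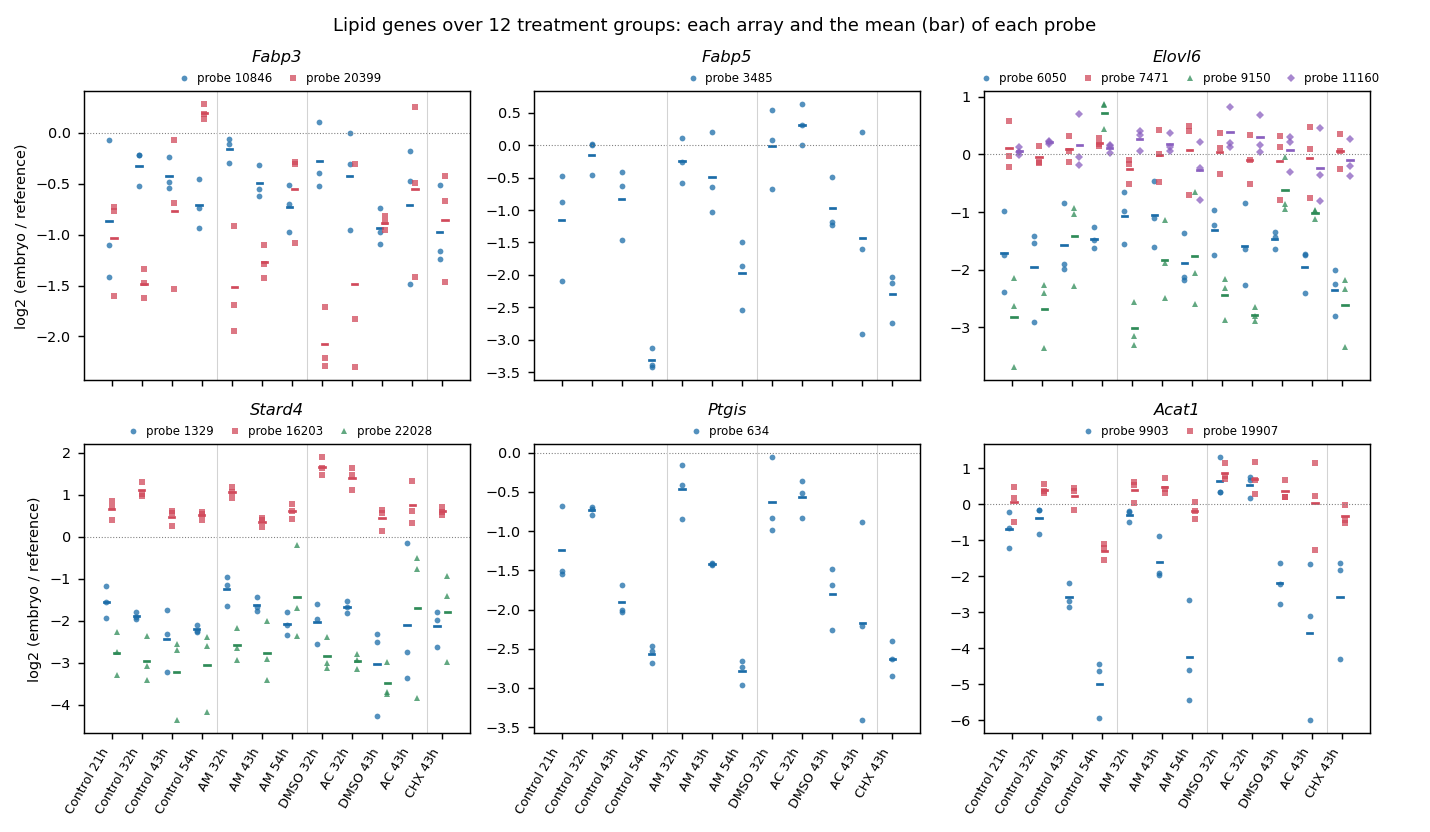
Log2 ratio of embryo to reference after quantile normalization on the y axis, for the 12 treatment groups on the x axis. Points are single arrays (3 per group), bars are means, and colours are probes. Elovl6 probe 9150 lies above the reference in the 54 h controls, with a mean of 0.72, and below it in all 11 other groups.

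In control embryos, Elovl6 probe 9150 read -3.36, -2.40 and -2.27 at 32 h, -0.93, -1.03 and -2.29 at 43 h, and rose to 0.44, 0.87 and 0.86 at 54 h. With AM it read -3.15, -3.30 and -2.56 at 32 h, -1.14, -2.49 and -1.89 at 43 h. The AM arrays at 54 h read -2.60, -2.05 and -0.65. At this hour no AM array reached the lowest control, while at 32 and 43 h the groups overlapped. The difference at 54 h was -2.49 ± 0.46, 5.60-fold lower with AM (adjusted p = 0.00085). It was not called in a fit of these 2 groups alone, where the difference was the same and 2.89% of all probes were called. For probe 9150 the AM difference was -0.33 at 32 h and -0.42 at 43 h, neither called. Its AM difference at 54 h less that at 32 h was -2.16 ± 0.65 (unadjusted p = 0.0025, adjusted p = 0.099), so a change of the AM difference with time was not called. Without AM array 3 at 54 h it was, as were 1.10% of all probes. In controls the rise of probe 9150 from 32 to 54 h was 3.40 ± 0.46, 10.5-fold (adjusted p = 6.6e-06). With AM the difference between the same hours was 1.24 (adjusted p = 0.058). The other 3 Elovl6 probes were not called between AM and control at 54 h. Probe 6050, which followed probe 9150 over the stages, did not follow it here: it differed by -0.43 ± 0.42 with AM (adjusted p = 0.66), did not pass the F test over the 12 groups (adjusted p = 0.22) and had a correlation of 0.08 with probe 9150.

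Fabp5 read -0.46, -0.01 and 0.01 in controls at 32 h, -1.47, -0.62 and -0.41 at 43 h, then -3.12, -3.42 and -3.38 at 54 h. The 54 h arrays lay below all others. The level fell by 3.16 ± 0.52 from 32 to 54 h, 8.93-fold (adjusted p = 6.1e-05), and by 2.48 ± 0.52 from 43 to 54 h (adjusted p = 0.0070). With AM it read 0.10, -0.26 and -0.59 at 32 h, later -2.54, -1.50 and -1.87 at 54 h, and fell by 1.72 ± 0.52 between them (adjusted p = 0.020). At 54 h all AM arrays lay above all controls, with a difference of 1.34 ± 0.52 that was not called (adjusted p = 0.13).

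Ptgis fell in these hours with and without AM. Controls read -0.70, -0.71 and -0.79 at 32 h and -2.53, -2.69 and -2.47 at 54 h. Embryos with AM read -0.15, -0.41 and -0.84 at 32 h and -2.96, -2.66 and -2.73 at 54 h. In both the late arrays lay below the early ones with no overlap. The level fell by 1.83 ± 0.37 in controls (adjusted p = 0.00063) and by 2.32 ± 0.37 with AM (adjusted p = 9.5e-05), and at 54 h AM and control differed by -0.22 ± 0.37, which was not called.

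Acat1 probe 9903 read -0.84, -0.16 and -0.18 in controls at 32 h, -2.20, -2.68 and -2.86 at 43 h, then -5.94, -4.63 and -4.43 at 54 h, and the 3 ranges do not overlap. It fell by 4.61 ± 0.76 from 32 to 54 h, 24.4-fold (adjusted p = 7.1e-05). With AM it read -0.20, -0.50 and -0.23 at 32 h, later -4.62, -2.67 and -5.43 at 54 h, and fell by 3.93 ± 0.76 (adjusted p = 0.00075). Probe 19907 read 0.35, 0.30 and 0.57 in controls at 32 h and -1.11, -1.54 and -1.23 at 54 h, a fall by 1.70 ± 0.37 (adjusted p = 0.0012). With AM at 54 h it read -0.41, -0.20 and 0.05, all above the controls, and the difference of 1.11 ± 0.37 was not called (adjusted p = 0.070). The correlation of the Acat1 probes over the 12 groups was 0.83.

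Fabp3 probe 20399 rose by 1.68 ± 0.43 in controls from 32 to 54 h (adjusted p = 0.0051), from -1.48, -1.63 and -1.34 to 0.28, 0.14 and 0.18. In the stage set this probe was not called between fertilized eggs and 2-cell embryos, at 0.09 ± 0.31 (limma, adjusted p = 0.89). Why the sets differ was not tested. With AM at 54 h probe 20399 read -0.28, -1.08 and -0.30, below all controls, and the difference of -0.75 was not called (adjusted p = 0.36). Probe 10846 did not follow it here, with means of -0.97 to -0.16 over the 12 groups (F test, adjusted p = 0.25) and a correlation of -0.62 with probe 20399. Of the Stard4 probes, 16203 fell by 0.59 ± 0.20 in controls over these hours (adjusted p = 0.035) and the others were not called.

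**Figure D4:**
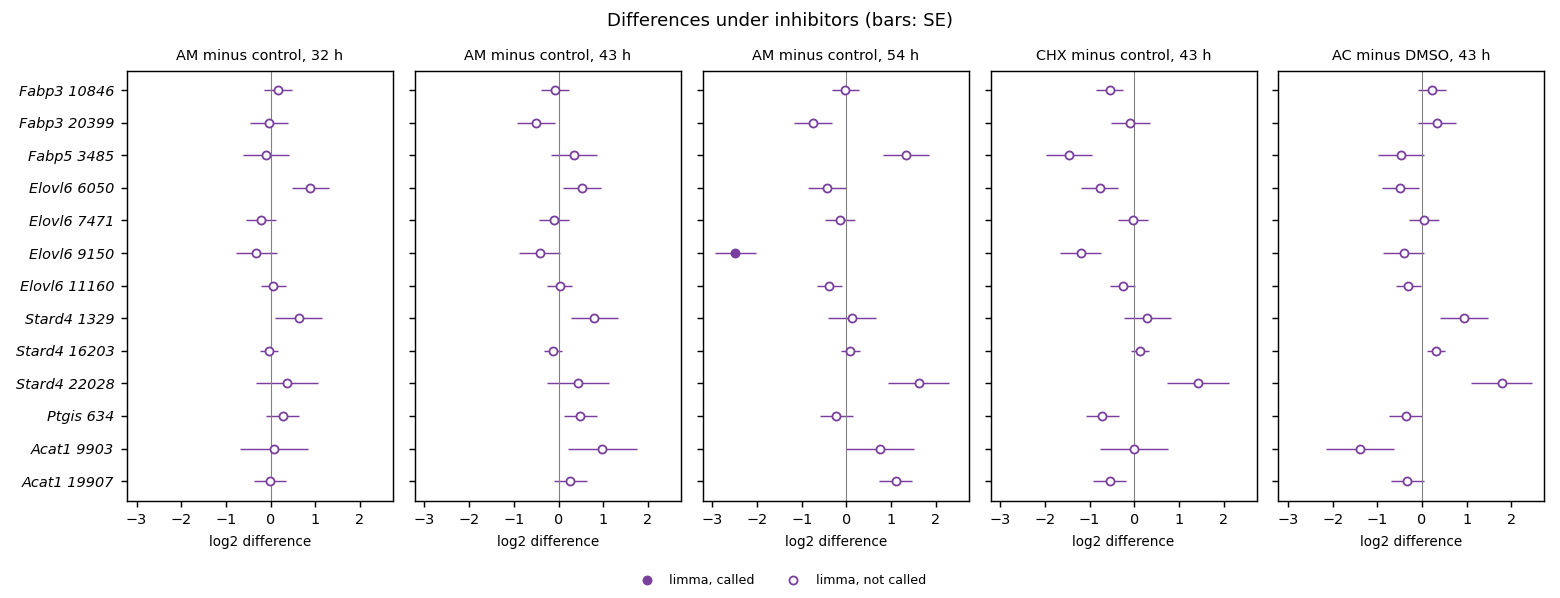
Log2 difference between embryos with and without an inhibitor on the x axis, for each member probe on the y axis, with bars for the standard error. Filled points passed the test in limma. Of all 65 points shown only Elovl6 probe 9150 with AM at 54 h is filled, at -2.49.

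By comparison, 0 of the 13 probes changed in controls from 21 to 32 h (0.315% of all probes) or from 32 to 43 h (3.60%). There 1 and 4 of the 13 had an unadjusted p under 0.05, against 1918 and 2783 of all 22575 probes. A fit of the 32 and 43 h controls alone called 2, against 5.29% of all probes. From 43 to 54 h 3 changed, Elovl6 probe 9150 up and Fabp5 and Acat1 probe 19907 down, against 4.08%, 2.31% up and 1.78% down. These 3 calls rest on few arrays: without control array 3 at 43 h 0 were called (1.12% of all probes) and without control array 2 at 54 h 1 was (1.05%), and that of Acat1 was not made on the values as deposited (-1.40). From 32 to 54 h 7 changed in controls, against 22.9%, and with AM 3 changed, all down, against 19.0% in either direction and 9.39% down. AM against control gave 0 at 32 h and 0 at 43 h, where limma called 0% of all probes. At these hours 1 and 0 member probes had an unadjusted p under 0.05, against 475 and 982 of all 22575 probes. At 54 h AM against control gave 1, lower with AM, against 6.45% of all probes in either direction and 4.34% lower. AM and control groups of an hour differ in the agent alone per the labels, and the comparisons at different hours have no array in common.

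CHX was measured at 43 h only. Against 43 h controls 0 of the 13 probes changed, against 2.25% of all probes. Of the 13, 3 had an unadjusted p under 0.05, as did 3189 of all 22575 probes. Fabp5 read -2.12, -2.04 and -2.75 with CHX, below all 3 controls, and the difference of -1.47 ± 0.52 was not called (adjusted p = 0.15). Elovl6 probe 9150 read -3.34, -2.18 and -2.34, which overlaps the controls, at -1.20 ± 0.46 (adjusted p = 0.20). The last of the 3, Stard4 probe 22028, went the other way. It read -1.42, -2.99 and -0.94 with CHX and -2.56, -4.37 and -2.70 in controls, which overlap, and the difference of 1.43 ± 0.69 was not called (adjusted p = 0.35). Set against 32 h controls, which differ in hour as well, 2 of the 13 were lower in CHX embryos, against 10.4% of all probes in either direction and 7.13% lower. These were Fabp5, at -2.15 ± 0.52 (adjusted p = 0.0083), and Ptgis, at -1.89 ± 0.37 (adjusted p = 0.0016).

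AC was compared with DMSO, and 0 of the 13 probes changed at 32 h (0% of all probes) and 0 at 43 h (0.204%). An unadjusted p under 0.05 was found for 0 and 1 of the 13, against 424 and 2844 of all 22575 probes. From 32 to 43 h 5 changed with AC, against 17.1% of all probes, and 5 with DMSO, against 24.3%. Elovl6 probe 9150 rose by 1.76 ± 0.46 with AC (adjusted p = 0.011), from -2.80, -2.90 and -2.64 to -1.12, -0.97 and -0.98. With DMSO it rose by 1.83 ± 0.46 (adjusted p = 0.0055), from -2.16, -2.87 and -2.31 to -0.87, -0.94 and -0.04. In neither case did the hours overlap. Ptgis and Acat1 probe 9903 fell in both, and Ptgis fell by 1.60 with AC and by 1.18 with DMSO. The AC arrays at 43 h were uneven. Array 2 read -6.01 for Acat1 probe 9903, which was at the limit before normalization, against -1.65 and -3.11, and -2.90 for Fabp5 against 0.20 and -1.60. This array had 188 features at the lower limit, the most of the treatment set. The mean correlation with the others of the group was lowest for array 1, at 0.76, against 0.80 for array 2 and 0.85 for array 3. Without array 1 of this group 3 member probes were called between AC and DMSO, against 12.7% of all probes. DMSO against control gave 0 at 32 h (0.656% of all probes) and 0 at 43 h (0%). Here 1 and 0 of the 13 had an unadjusted p under 0.05, against 2424 and 1655 of all 22575 probes. None of the 65 tests of whether an AM, AC or DMSO difference changed with the hour passed, and over all probes 0% to 0.0797% did, or 1.47% for the AM difference at 54 h less that at 32 h.

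Other lipid genes were measured in part, counting only probes with 1 symbol. Of 24 listed carriers 3 were measured, of 32 genes of fatty acid synthesis 11, of 36 sterol genes 5, of 21 prostanoid genes 2, of 28 genes of ketone and fatty acid oxidation 5, and of 20 genes of lipid droplets 6. Among the carriers, Dbi, which binds acyl-CoA, fell in both steps in which Fabp5 fell. It fell by 1.12 ± 0.20 into the 2-cell stage and by 0.71 ± 0.20 into the 4-cell stage, and it rose by 1.19 ± 0.20 into the blastocyst. Into the 8-cell stage the fat cell carrier Fabp4 fell by 0.89 ± 0.27 and Acbd4, of the acyl-CoA binding domain family, rose by 0.55 ± 0.19. For the 3 carrier probes, 1 fell and 0 rose into the 2-cell stage, where 12.9% of all probes fell and 14.5% rose, with a median of -0.47 against 0.09 over all probes.

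Of the 13 probes of fatty acid synthesis, 4 rose and 2 fell into the 2-cell stage (median 0.00), where 14.5% of all probes rose and 12.9% fell. Between unfertilized egg and blastocyst 2 rose and 0 fell (median 0.52 against 0.05 over all probes), where 15.8% of all probes rose and 13.7% fell. Scd1, the desaturase that acts on the stearate that ELOVL6 makes, has 2 probes that disagree. Probe 20556 had means of -2.60 in fertilized eggs, -4.24 in 2-cell embryos and 0.20 in blastocysts, and rose 9.0-fold from unfertilized egg to blastocyst (adjusted p = 6.4e-10). The same probe rose by 1.33 into the 4-cell stage, by 1.44 into the 8-cell stage and by 1.12 into the blastocyst. Probe 3690 rose by 0.70 ± 0.22 into the 2-cell stage (adjusted p = 0.02), where probe 20556 fell, and its difference of 0.52 between unfertilized egg and blastocyst was not called (adjusted p = 0.086). Elovl5, an elongase of polyunsaturated fatty acids, rose by 1.62 ± 0.30 into the 2-cell stage and fell by 1.02 ± 0.30 into the 4-cell stage. Me1, the malic enzyme that supplies NADPH, rose by 2.04 ± 0.34 at fertilization and fell by 2.17 ± 0.34 into the 2-cell stage with probe 19312. Its probe 6297 differed by 0.38 and -0.42 in these steps, neither called (adjusted p of 0.42 and 0.19). Probe 19312 also rose by 1.34 into the blastocyst, where the difference of 0.34 for probe 6297 was not called. Fads1, a desaturase, rose by 1.82 ± 0.43 into the 8-cell stage. Of the dehydratases that act in the elongation cycle beside ELOVL6, Hacd2 rose by 1.45 ± 0.50 into the 2-cell stage and Hacd3 fell by 0.97 ± 0.21 into the 8-cell stage. Acaca, the acetyl-CoA carboxylase that makes malonyl-CoA, rose by 1.12 ± 0.28 from unfertilized egg to blastocyst.

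Of the 6 sterol probes, 0 rose and 2 fell into the 2-cell stage, where 14.5% of all probes rose and 12.9% fell. From unfertilized egg to blastocyst 2 rose and 2 fell (median 0.14), where 15.8% of all probes rose and 13.7% fell. Scap, which escorts the sterol-sensing transcription factors, fell by 2.82 ± 0.33 into the 2-cell stage and was 12.7-fold lower in blastocysts than in unfertilized eggs (adjusted p = 1.1e-09). Scap rose by 1.38 into the 4-cell stage and fell by 1.88 into the 8-cell stage. Srebf2, one of those transcription factors, rose by 2.54 ± 0.44 into the 8-cell stage with probe 16266 and by 1.79 ± 0.36 with probe 20087. Both probes rose from unfertilized egg to blastocyst, by 1.31 and 0.98, and probe 16266 fell 2.83-fold into the morula. Srebf2 was the only listed gene called between AM and control at any hour, 1.35 ± 0.31 higher with AM at 54 h for probe 20087 (adjusted p = 0.0068), while probe 16266 differed by 0.10 and was not called (adjusted p = 0.92). Npc1, which exports cholesterol from lysosomes, fell by 1.68 ± 0.36 at fertilization and by 1.30 ± 0.36 into the 2-cell stage, and was 4.99-fold lower in blastocysts than in unfertilized eggs.

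Both prostanoid probes rose into the 8-cell stage, as did 20.9% of all probes, while the Ptgis difference of -0.95 was not called: the receptor gene Ptger2 by 1.47 ± 0.31 and the synthase gene Ptges3 by 0.94 ± 0.31. Of the 6 probes of ketone and fatty acid oxidation, 2 rose and 0 fell into the 2-cell stage, against 14.5% of all probes up and 12.9% down, and 4 fell and 0 rose into the 8-cell stage, against 20.2% down and 20.9% up. Ppara, a nuclear receptor for fatty acids, rose by 1.28 ± 0.36 and then fell by 1.51 ± 0.36 in these steps, and Hadha, a subunit of the trifunctional protein, rose by 1.19 ± 0.29 in the first. Acadm, an acyl-CoA dehydrogenase, fell by 0.99 ± 0.33 into the 8-cell stage. Hadhb, the other subunit of the trifunctional protein, fell by 2.56 ± 0.73 from unfertilized egg to blastocyst with probe 20049, while probe 6051 differed by 0.38 and was not called. Of the 6 lipid droplet probes 1 rose and 2 fell into the 2-cell stage, beside the 14.5% and 12.9% of all probes: the lipase gene Lipe rose by 1.0 ± 0.25, the acyltransferase gene Agpat1 fell by 2.07 ± 0.24 and the lipase gene Pnpla2 fell by 0.89 ± 0.22. Pnpla2 rose by 0.83 ± 0.22 into the 4-cell stage, and Agpat1 fell by 1.40 ± 0.24 from unfertilized egg to blastocyst. Counts into the 8-cell stage carry the limit given above, since the stages share no array subset. Those between unfertilized egg and blastocyst set egg arrays mostly of the first subset against blastocyst arrays of the second.

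For the probe of each member with the widest range of stage means, the probes of other genes with the most similar course over the 7 stage means were looked up among about 3270 that varied by at least 1 log2 unit. These correlations are over 7 means of the same arrays and describe shape alone. Nucks1 (0.996), Tead1 (0.988) and Smarca5 (0.986) were nearest to Fabp3 probe 20399. Tbl1xr1 (0.950), Stard4 probe 1329 (0.924) and Ptbp3 (0.920) were nearest to Fabp5. Fabp5 and this Stard4 probe both had their lowest mean at the 4-cell stage and their highest in blastocysts. For the Stard4 probe no neighbours in the order of stage means were called (limma, adjusted p of 0.46 to 0.90). Nearest to Elovl6 probe 9150 were 1500009L16Rik (0.994), Nudt3 (0.994) and Hsph1 (0.989), a heat shock protein whose means ran from -6.41 in unfertilized eggs to 0.17 at the 4-cell stage. Nearest to Stard4 probe 1329 were Mroh1 (0.967), Pfdn1 (0.961) and Epb41l4b (0.957), and to Ptgis Prrc2b (0.978), Ptpra (0.969) and Sirt3 (0.937). Nearest to Acat1 probe 9903 were Cdc42se2 (0.997), the DNA methyltransferase gene Dnmt3a (0.997) and C2cd5 (0.996).

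Over the 12 treatment group means, other genes came nearest. They were Ptprs (0.963), Heatr3 (0.962) and Notch1 (0.959) for Fabp3, Rab7 (0.981), Ramac (0.968) and Zfp451 (0.968) for Fabp5, and Wipi2 (0.971), Igsf8 (0.968) and Cep57 (0.967) for Elovl6. For Ptgis they were Smim13 (0.978), Usp10 (0.969) and Nudc (0.968), and for Acat1 Dstyk (0.988), Hspa9 (0.985) and Adar (0.980). For Stard4 the nearest, Chd9 and Nipbl, reached 0.828 and Sugt1 0.778. Wipi2 lay at 1.11 in 54 h controls and at -1.51 with AM at 54 h, where Elovl6 lay at 0.72 and -1.77.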

How the data were processed

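The values the authors deposited, in a single table with 22575 probes, behave as log10 ratios of the 2 channels limited at -2 and 2. Their log base and direction, and the background correction and normalization of each array, were not stated in the labels or files. The base was read from the limits. Values were multiplied by -3.32 to give log2 ratios of embryo to reference. The stage set, with array medians within 0.5 log2 units, was used as deposited. The treatment set, with medians spanning 0.53, was quantile-normalized. Groups came from the labels. Probes were named through the platform annotation (4262 with 1 symbol, 6822 with several, 11491 unnamed), and each probe was tested on its own with limma 3.58.1 in R 4.3.3 (lmFit, contrasts, eBayes), all groups of a set in 1 fit, two-sided, with Benjamini-Hochberg adjustment over all 22575 probes and a threshold of 0.05. The number of arrays limits the precision, and no scanner output was used. The steps were tested on simulated data with 100 changed probes per comparison. These comparisons, morula to blastocyst and AM against control at 54 h, had 300 and 1457 calls in the data, so recovery there may differ. Of 100 probes shifted by 1 log2 unit, 31% were recovered from morula to blastocyst and 17% for AM against control at 54 h. For a shift of 2 units these were 77% and 78%. A difference that was not called is therefore not shown to be absent.

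The 6 genes, the pathway lists and the markers were chosen with earlier results of these data known. Every member probe is described. Of each list, the text names the probes with the largest called changes, at most 2 up and 2 down per stage, AM, AC or CHX comparison. The second probes of Scd1, Me1, Srebf2 and Hadhb were added after their values were seen. Array subsets were found from the values, by the split that unfertilized egg array 4 and morula arrays 3 and 4 share, and the fits within a subset were added after the data were seen. Arrays of stages without such a split were placed by their correlation with it, which differences between stages can also move. Alternatives covered the scaling, values of exactly 0, probes at a limit, the compared groups alone, the replicate and subset blocks and leaving out each array, and for the treatment set leaving out 4 arrays with few features at the upper limit.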

Additional observations from a re-analysis of the deposited data

Results flagged for a closer look

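Among the 91 sets of 4 stage arrays examined (13 probes at 7 stages), 10 held an array set apart from the other 3 by a gap that exceeded Dixon's critical value of 0.829 as a share of the range. Chance marks about 1 such set in 20. Fabp3 probe 10846 read -0.121 on unfertilized egg array 1, with the others at 0.43 to 0.53, and -0.596 on 2-cell array 3, with the others at -0.25 to -0.18. Fabp5 read -0.214 on morula array 4, against -0.83 to -0.77. For Elovl6, probe 7471 read -0.278 on 2-cell array 1 (others 0.25 to 0.29), probe 9150 read 2.63 on 8-cell array 3 (others 2.33 to 2.38), and probe 11160 read -0.387 on fertilized egg array 2 (others 0.41 to 0.53) and -1.77 on 2-cell array 4 (others -0.22 to 0.06). Acat1 probe 9903 read -3.94 on 8-cell array 1 (others -4.54 to -4.47) and -3.16 on morula array 1 (others -3.91 to -3.83). Acat1 probe 19907 read 0.116 on unfertilized egg array 4, the 1 unfertilized egg array of the second subset, with the others at 1.30 to 1.51.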

How the results depend on the processing

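For the 29 called member differences, 446 values were computed under the alternatives. Of these 411 kept direction and call, 35 kept direction and lost the call, and 0 reversed, and 18 of the 29 kept their call under all alternatives. With the array subset as a block, 2 member probes in place of 6 were called from 4-cell to 8-cell (2.56% of all probes in place of 41.1%), and 0 in place of 1 from 8-cell to morula, which was also 0 in a fit of the compared stages alone and within the second subset. Fits of the compared groups alone called 2 probes in place of 0 in controls from 32 to 43 h (Ptgis and Acat1 probe 9903, with 5.29% of all probes in place of 3.60%) and 0 in place of 1 for AM against control at 54 h. Leaving out each array in turn gave 0 to 2 calls from 8-cell to morula, 0 to 3 in controls from 43 to 54 h, 0 to 3 for AC against DMSO at 43 h, and 0 to 1 for a change of a treatment difference with the hour, the 1 coming without AM array 3 at 54 h. Shares of all probes moved as well. In controls from 43 to 54 h, 1.12% were called without 43 h array 3 and 1.05% without 54 h array 2, in place of 4.08%. For AC against DMSO at 43 h, 12.7% were called without AC array 1, in place of 0.204%. Without AM array 3 the share for the changed AM difference was 1.10%, in place of 1.47%. The cause of these differences was not tested. Same-numbered arrays were not shown to be paired: in 0 of 18 comparisons did all pairs of deviations correlate above 0.1 (lowest -0.435, highest 0.588). With the replicate block, 5 in place of 6 probes were called from 4-cell to 8-cell, and every other comparison kept its count. Ratios at the limit are bounds, and for 2 such member values the level beyond the limit is unknown.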
